A study of Mus musculus with 59 samples.

Results

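The expression of 9 p53 target genes that act in cell-cycle arrest and in the control of p53 itself (Cdkn1a, Ccng1, Mdm2, Btg2, Ppm1d, Plk2, Plk3, Sesn1 and Sesn2) was followed across 12 tissue and dose groups. Earlier results of these data were known when the genes were chosen, so their counts are no independent test. Chosen by name, from general knowledge of the pathway, the genes were found through the RefSeq accession of each array probe. They held 10 of the 55681 probes and were 9 of the 37163 genes or transcripts on the array, with 2 probes for Cdkn1a and 1 for every other gene. Adult male Muta™Mouse aged about 16 weeks, a transgenic strain built for mutation assays, were given benzo(b)fluoranthene (BbF), a polycyclic aromatic hydrocarbon, in olive oil by oral gavage on 28 days. The daily doses were 0 (vehicle, olive oil alone, mice 1 to 5), 25 (low, mice 6 to 10), 50 (medium, mice 11 to 15) and 100 mg/kg-bw (high, mice 16 to 20). Lung, liver and forestomach were taken 72 hours after the last dose, from the same animals under the same numbers. The compound is named in conflicting ways: sample titles give BbF, while benz(a)anthracene stands in 1 exposure label and in the description of the design. The doses belong to BbF, and that name is used here. Each group held 5 arrays apart from low-dose lung, which held 4 because mouse 7 has no lung array here, and 59 arrays were analysed in all. Random sections of whole tissue were extracted, so that fewer cells of a type and less RNA per cell cannot be told apart.

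The transcription factor p53 accumulates when DNA is damaged and switches on genes that halt the cell cycle, among them the inhibitor of cyclin-dependent kinases encoded by Cdkn1a. It also switches on its own brakes, such as the ubiquitin ligase Mdm2, which marks p53 for destruction, and the phosphatase Ppm1d, which removes activating phosphates from p53 and its upstream kinases. Polycyclic aromatic hydrocarbons are metabolized to products that bind DNA, which places these genes among those examined in such exposures.

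Promoter sequences from RefSeq (GRCm38.p6) are shown for the members whose window, from 250 bases before to 50 bases after an annotated start, held a match to the p53 half-site, a stretch of 10 bases with 3 purines, a core of 4 bases (C, then A or T at each of 2 positions, then G) and 3 pyrimidines. All 9 genes were matched, with 11 windows in all since Cdkn1a and Sesn1 had 2 each. The capitals mark the half-sites, each sequence is written 5′ to 3′ on the strand of its gene, and the half-site consensus reads the same on both strands. Cdkn1a, + strand, is at chr17:29090913-29090962. Ccng1, - strand, is at chr11:40755442-40755491. Mdm2, - strand, is at chr10:117710915-117710964. Ppm1d, + strand, is at chr11:85311102-85311151, and Sesn1, + strand and the second of its windows, is at chr10:41887246-41887295.
Cdkn1a: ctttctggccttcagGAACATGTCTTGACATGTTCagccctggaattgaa
Ccng1: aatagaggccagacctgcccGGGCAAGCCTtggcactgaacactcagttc
Mdm2: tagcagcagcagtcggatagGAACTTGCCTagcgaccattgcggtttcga
Ppm1d: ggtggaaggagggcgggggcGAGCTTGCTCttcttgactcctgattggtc
Sesn1: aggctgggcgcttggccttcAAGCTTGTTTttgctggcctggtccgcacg

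The half-site was found in 5 of the 11 windows, and in 8.36% of 32851 promoter windows of the same length. In the Cdkn1a window the second of the adjacent stretches in capitals departs from the half-site by 1 mismatch, and a pair of half-sites with at most 2 mismatches outside the cores and a spacer of at most 13 bases was found in 2.12% of all windows. The Cdkn1a window also held a pair without mismatch within that spacer, whose first half-site lies mostly before the stretch printed. Pairs without mismatch were found in 0.0731% of all windows. The second Sesn1 window held a pair with 2 mismatches. The Cdkn1a window with these matches lies upstream of the more distal of the annotated Cdkn1a starts, 2790 bases before the other start, whose own window held no half-site. No half-site was found in the windows of Btg2, Plk2, Plk3 and Sesn2 or in the first window of Sesn1. These matches describe the letters of each window and say nothing on binding in these tissues.

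Each value below is the log2 ratio of the tissue's RNA (Cy5) to a universal mouse reference RNA (Cy3) on the same array after loess normalization, and a change is a difference of such ratios. A ratio sets a gene against the reference, so ratios were compared between groups and never between genes. A gene was called when the Benjamini-Hochberg adjusted p of limma's moderated test over all probes was at most 0.05 and the change was at least 1.5-fold. Counts of members with an unadjusted p under 0.05 are not calls, and the share of all genes at that level was not counted. Markers of the tissues separated them, with 2 exceptions: the lung array of low-dose mouse 6 held Krt13 at 4.17 and Krt4 at 5.73, near the levels of forestomach (medians of 5.04 and 6.52), and the forestomach array of medium-dose mouse 12 held the hepatic gene Alb at 4.79 (liver median of 6.45). Forestomach as a whole also held the lung marker Scgb1a1, with a median of 5.03 against 8.21 in lung and 0.03 in liver. Its median of Alb was 1.97. On the third of the 3 liver slides, with 1 array of vehicle, 2 of low, 2 of medium and 3 of high dose, between 10.74% and 12.9% of probes were well above background, against 37.1% to 46.1% on the other liver slides. The lung array of medium-dose mouse 13 stood out with 68.8%, against 52.7% for the next lung array. Values without these arrays are given for some of the results from the groups that hold them.

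In lung, Cdkn1a and Ccng1 rose at every dose of BbF, and at the high dose Mdm2, Plk2, Plk3 and Sesn2 rose as well. At the low dose 2 of 9 members were called, against 0.433% of all genes tested (0.409% higher and 0.0242% lower). At the medium dose 2 of 9 were called, against 0.584% (0.452% higher and 0.132% lower). At the high dose the number was 6 of 9, against 1.77% (1.25% higher and 0.511% lower), and all calls among the members were increases. The balance of directions over all genes depended on the scaling. With arrays centred on their medians in place of loess, 335 genes rose and 5 fell at the medium dose, against 168 and 49, and 2989 rose and 31 fell at the high dose, against 466 and 190. All 9 members were well above background on every array of some dose group of lung, and among the 20070 genes for which this held, 3.23% were called at the high dose.

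**Figure D1:**
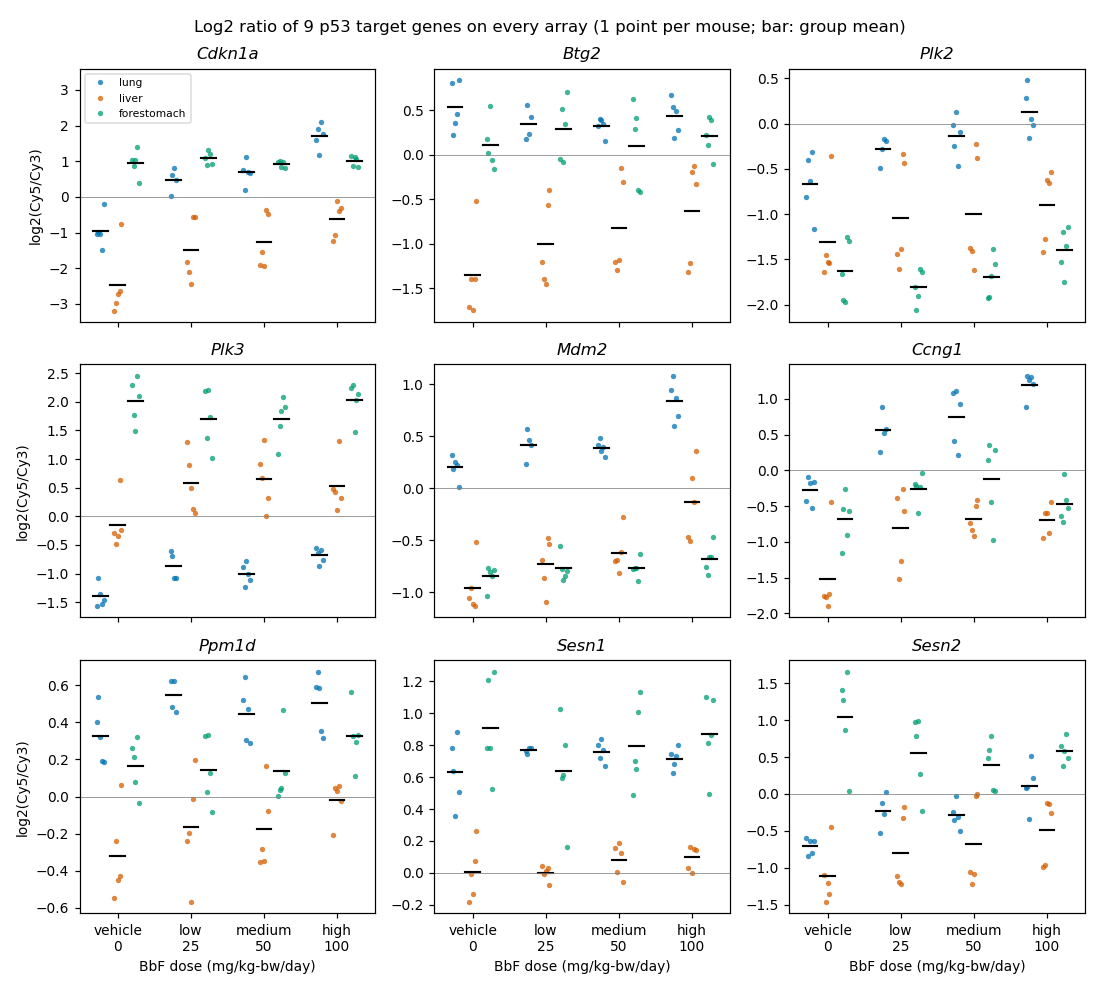
Log2(Cy5/Cy3) of each gene (vertical axis, 1 panel per gene with its own scale) at the 4 doses of BbF in mg/kg-bw/day (horizontal axis); each point is 1 mouse, coloured by tissue, and black bars are group means. In lung, Cdkn1a climbed from a mean of -0.95 with vehicle to 1.71 at the high dose, whereas in forestomach the group means lay between 0.93 and 1.09.

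Cdkn1a (NM_007669), which encodes the p21 inhibitor of cyclin-dependent kinases, showed the largest change of the members in lung. Its ratios were -1.04, -0.99, -1.04, -1.50 and -0.21 in vehicle mice and 0.02, 0.62, 0.80 and 0.47 in low-dose mice. They were 0.70, 0.76, 0.19, 0.66 and 1.12 in medium-dose mice and 1.59, 1.91, 1.18, 1.76 and 2.11 in high-dose mice. Every dosed mouse lay above every vehicle mouse, and every high-dose mouse above every medium-dose mouse. The low-dose change was 1.43 ± 0.22 (SE, adjusted p = 0.001815 by limma) and the medium-dose change 1.64 ± 0.21 (adjusted p = 0.0002829). At the high dose it reached 2.66 ± 0.21, which is 6.33-fold (adjusted p = 1.34e-07). Without the low-dose array that carried forestomach keratins, the low-dose change was 1.58 (adjusted p = 0.001413), and without medium-dose mouse 13 the medium-dose change was 1.76 (adjusted p = 0.000186).

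The second Cdkn1a probe (NM_001111099) was dimmer, with 1 of 5 vehicle lung arrays well above background against 5 of 5 at the high dose. Its ratios were -0.83, -0.79, -0.69, -0.57 and -0.88 in vehicle and 1.92, 2.44, 1.52, 2.09 and 2.44 in high-dose lung. The groups did not overlap. Its changes in lung were 1.66, 2.10 and 2.84 for the low, medium and high dose, each called by limma (adjusted p = 0.0002436, 1.62e-05 and 2.96e-08), and they are set against a vehicle group that was mostly not well above background. From the medium to the high dose it changed by 0.74 (adjusted p = 0.154). The main probe was printed 10 times on each array, and the SD of these spots within an array ranged from 0.0297 to 0.198 with a median of 0.0719.

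Ccng1 (NM_009831) encodes cyclin G1, which recruits a phosphatase to Mdm2 and takes part in the feedback on p53. Its ratios were -0.42, -0.09, -0.18, -0.52 and -0.17 in vehicle lung and 0.25, 0.89, 0.53 and 0.57 in low-dose lung. In medium-dose mice they were 0.22, 1.08, 0.41, 0.93 and 1.11, and in high-dose mice 0.88, 1.32, 1.26, 1.21 and 1.30. As with Cdkn1a, no dosed mouse overlapped the vehicle group. The change was 0.84 ± 0.17 for the low dose (adjusted p = 0.01513) and 1.03 ± 0.16 for the medium dose (adjusted p = 0.001339). For the high dose it was 1.47 ± 0.16 (adjusted p = 6.79e-06). The low-dose call was lost without low-dose mouse 8 (change 0.73, adjusted p = 0.07822) or low-dose mouse 10 (0.83, adjusted p = 0.05179), and was kept without mouse 6 (0.94, adjusted p = 0.01358). Without medium-dose mouse 13 the medium-dose change was 1.11 (adjusted p = 0.001036).

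Mdm2 (NM_010786), the ubiquitin ligase that acts on p53, was called in lung at the high dose alone. Its ratios were 0.32, 0.19, 0.25, 0.22 and 0.01 in vehicle lung and 0.95, 1.08, 0.60, 0.69 and 0.87 at the high dose. The groups did not overlap, while the low-dose and medium-dose changes of 0.22 and 0.19 missed the threshold (adjusted p = 0.4688 and 0.3278). The high-dose change was 0.64 ± 0.09, or 1.56-fold (adjusted p = 0.000145). Without high-dose mouse 17 it was 0.58 (adjusted p = 0.0006138), under 1.5-fold. Ppm1d (NM_016910), the other brake on p53, changed by 0.18 at the high dose, with a 95% interval from -0.01 to 0.37 (adjusted p = 0.3132).

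The polo-like kinases Plk2 and Plk3, relatives of the mitotic kinase Plk1 that respond to stress, were also called in lung at the high dose alone. Plk2 (NM_152804) was at -0.81, -0.40, -0.63, -0.31 and -1.16 in vehicle and at 0.28, 0.48, -0.15, -0.02 and 0.05 in high-dose lung. Plk3 (NM_013807) was at -1.57, -1.08, -1.36, -1.52 and -1.46 in vehicle and at -0.56, -0.64, -0.87, -0.77 and -0.58 in high-dose lung. For both kinases every high-dose mouse lay above every vehicle mouse. The high-dose changes were 0.79 ± 0.15 for Plk2 (adjusted p = 0.00215) and 0.71 ± 0.11 for Plk3 (adjusted p = 0.0005619). At the low dose Plk3 had an adjusted p of 0.04069 with a change of 0.53, short of 1.5-fold. The highest low-dose Plk3 value, -0.60, belonged to mouse 6, whose array carried forestomach keratins. The other low-dose values ranged from -1.08 to -0.70.

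Sesn2 (NM_144907) and Sesn1 (NM_001162908) encode sestrins, which restrain growth signalling through mTORC1 under stress. Sesn2 was at -0.59, -0.84, -0.64, -0.80 and -0.64 in vehicle and at 0.09, 0.09, -0.34, 0.21 and 0.51 in high-dose lung. The high-dose change was 0.82 ± 0.13 (adjusted p = 0.0004654), and all low-dose and medium-dose mice also lay above all vehicle mice, with changes of 0.48 (adjusted p = 0.137) and 0.42 (adjusted p = 0.1032) that missed the threshold. Sesn1, in contrast, changed by 0.08 at the high dose, with an interval from -0.09 to 0.25 (adjusted p = 0.6707). Btg2 (NM_007570), an antiproliferative gene that takes part in shortening mRNA tails, changed by -0.10, with an interval from -0.35 to 0.14 (adjusted p = 0.7361). With arrays centred on their medians in place of loess, the median change of genes detected in lung at the high dose was 0.29 in place of 0.00, and the values of Btg2 and Sesn1 became 0.33 (adjusted p = 0.1726) and 0.50 (adjusted p = 0.01527, under 1.5-fold). The sign for Btg2 thus depended on the scaling.

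**Figure D2:**
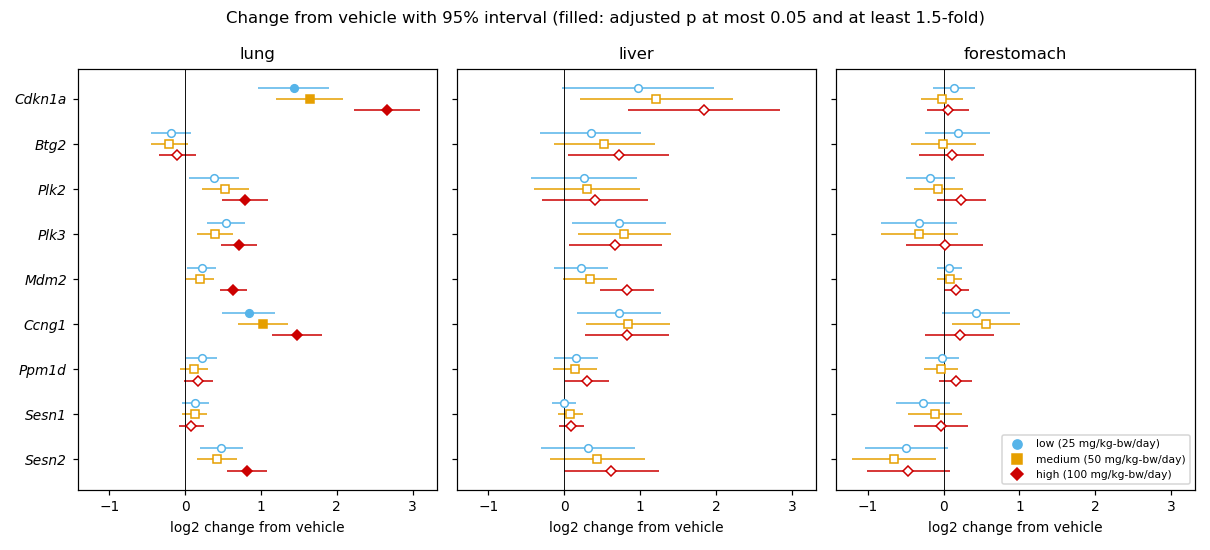
Change of each gene (vertical axis) from vehicle in log2 units (horizontal axis) in the 3 tissues, with 95% intervals from limma; circles are the low, squares the medium and diamonds the high dose, filled where the gene was called. Filled symbols appear in lung only, for Cdkn1a and Ccng1 at each dose and for Mdm2, Plk2, Plk3 and Sesn2 at the high dose.

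Each dose step within lung was tested by itself, and the steps were not compared with each other. The step from medium to high spans more dose than the step from low to medium. On the second Cdkn1a probe the change was 0.44 from low to medium and 0.74 from medium to high, and neither was called. The values that follow are of the main probes. Between the low and the medium dose no member was called (0 of 9 by limma, against 0% of all genes, with 0 of 9 under an unadjusted p of 0.05), and changes ranged from -0.14 for Plk3 to 0.21 for Cdkn1a. Between the medium and the high dose Cdkn1a was called with a further rise of 1.02 ± 0.21 (adjusted p = 0.03935), as 1 of 9 members against 0.229% of all genes (0.14% higher and 0.0888% lower). Mdm2 rose by 0.45 on this step (adjusted p = 0.03053), short of 1.5-fold, and 5 of 9 members had an unadjusted p under 0.05. The call of Cdkn1a on this step stood near the threshold. Leaving out 1 lung array at a time kept it in 7 of 19 cases (vehicle mice 4 and 5, low-dose mice 6, 9 and 10, medium-dose mouse 15 and high-dose mouse 18) and lost it in the other 12, with an adjusted p of up to 0.1532 without high-dose mouse 17 and of 0.1071 without medium-dose mouse 13 (change 0.90). Over the dose as a number, the trend was called for 6 of 9 members (1.49% of all genes, 1.07% upward and 0.428% downward), namely Cdkn1a with a fitted change from vehicle to the high dose of 2.47, Ccng1 with 1.36, Plk2 with 0.75, Sesn2 with 0.74, and Plk3 and Mdm2 with 0.61 each. The trend of Mdm2 fell short of 1.5-fold without vehicle mouse 5 (0.57) or high-dose mice 16 (0.57) or 17 (0.54), and that of Plk3 without vehicle mice 1 (0.56), 4 (0.57) or 5 (0.58).

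The high-dose mice differed among themselves in a shared way. Mouse 18 had the lowest ratio of the group for 6 of the 9 members, among them Cdkn1a, Mdm2, Plk2, Plk3 and Sesn2, and mouse 17 the highest for 4 of 9. Across the 19 lung arrays the genes whose profile was most like that of Cdkn1a, among 12397 other genes above background on all of them, were Reep1 (Pearson r of 0.968), Mmrn2 (0.959) and Tnfrsf10b (0.95). Thyn1 (0.951), Pqlc3 (0.948) and Gcc2 (0.942) were most like Ccng1, and Epha2 (0.929), Inf2 (0.922) and Nos3 (0.902) most like Mdm2. These correlations describe arrays that share the dose groups.

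Other genes of the pathway were described beside the members in lung. Of 20 other p53 targets, 6, 7 and 8 rose as the dose went from low to high and 0 fell, with median changes of 0.36, 0.28 and 0.28 against a median near 0.00 over all genes. The secreted stress cytokine Gdf15 changed by 3.101 at the high dose (adjusted p = 7.53e-07), Phlda3, an inhibitor of Akt, by 1.91 (adjusted p = 2.23e-08), the death receptor gene Tnfrsf10b by 1.57 (adjusted p = 8.54e-08) and the nuclease gene Aen by 1.51 (adjusted p = 1.28e-07). Between the medium and the high dose 3 of the 20 rose, namely Phlda3 by 0.77, Tnfrsf10b by 0.80 and Zmat3 by 0.65, of which Tnfrsf10b alone was called with median centring (0.93, adjusted p = 0.01761, against 0.89 and 0.79 with adjusted p = 0.05627 and 0.1006 for Phlda3 and Zmat3). Of 11 genes in a list of p53 regulators, which also holds the p53 relative Trp63, 0 were called at any dose in lung by limma. Trp53 itself changed by -0.06 (adjusted p = 0.8669), and the largest value was -0.38 for Trp63 (adjusted p = 0.09643).

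Of 10 relatives of the members, such as other kinase inhibitors and polo-like kinases, 1 rose in lung at the low dose (Plk1 by 0.66, adjusted p = 0.00557) and 1 fell at the high dose, with 0 called at the medium dose, where Plk1 had a change of 0.54 (adjusted p = 0.01214), short of 1.5-fold. The one that fell was Cdkn1c, an inhibitor of the same kinases as p21, which changed by -0.66 (adjusted p = 0.003831), and its relative Cdkn1b changed by -0.45 (adjusted p = 0.05744). Plk1 was named after its values were seen.

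Genes of proliferating cells were examined in the same lung arrays. Of 12 such genes, 9 rose at the low and 7 at the medium dose, with median changes of 0.96 and 0.70, and 0 were called at the high dose, with a median of 0.19. The proliferation antigen Mki67 changed by 2.13 (adjusted p = 7.63e-06), 1.65 (adjusted p = 8.82e-05) and 0.62 (adjusted p = 0.05573) at the 3 doses, and Birc5, the mitotic protein survivin, by 2.08, 1.59 and 0.55. Between the medium and the high dose 4 of the 12 fell, namely Mki67 by 1.03 (adjusted p = 0.01933), Birc5 by 1.03, Ccna2 by 1.04 and Ccnb2 by 0.63 on the log2 scale, on the same step on which Cdkn1a rose. Ccna2 and Ccnb2 were named after their values were seen.

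The high-dose part of this course depended on the scaling. With arrays centred on their medians, 11, 7 and 7 of the 12 genes rose at the low, medium and high doses and 0 fell between the medium and the high dose (for Mki67 -0.73, adjusted p = 0.1924), while of all genes 0.517%, 0.915% and 8.13% were called at the 3 doses in that scaling. The mean of the list still stood highest at the low and lowest, among the dosed groups, at the high dose. Cdkn1a changed by 1.57, 1.74 and 2.92 in that scaling. Under loess the mean of the 12 genes in the high-dose mice was -3.47, -3.47, -2.67, -3.17 and -3.49, against -3.59 to -3.22 in vehicle mice. The value of -2.67 belonged to mouse 18, which had the lowest ratio of its group for 6 of the 9 members, Cdkn1a among them. A link between the members and the proliferation genes was not tested. Without low-dose mouse 6, the number that rose at the low dose was 7, and without medium-dose mouse 13 the number that fell between the medium and the high dose was 3.

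**Figure D3:**
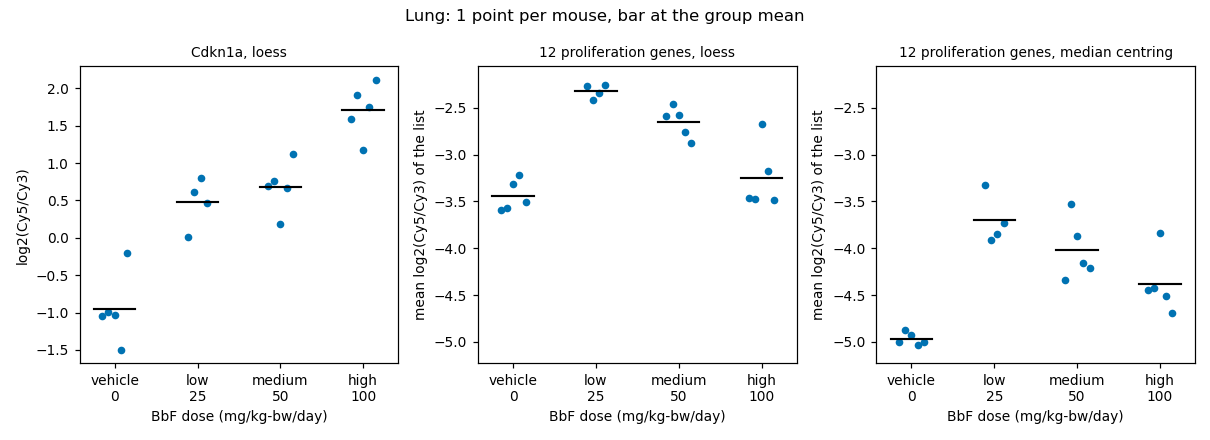
Lung arrays by BbF dose in mg/kg-bw/day (horizontal axis), 1 point per mouse with bars at group means: Cdkn1a after loess, and the mean log2(Cy5/Cy3) of 12 proliferation genes after loess and after median centring (vertical axes, the last panels on 1 scale). Cdkn1a was highest at the high dose, where the list under loess returned to -3.49 to -2.67, and under median centring stayed above all vehicle mice.

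Leukocyte markers were examined in the same lung arrays, since the sections hold blood and immune cells. The median change of 12 markers was 0.09, 0.34 and 0.24 at the 3 doses in rising order, and at the high dose 9 of 12 were above 0. Their mean ranged from 1.24 to 2.04 in vehicle mice, 1.48 to 1.87, 1.65 to 2.12 and 1.64 to 2.24 at the 3 doses in rising order, so the groups overlapped. Their part in the changes of the members was not tested.

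In liver, 0 of 9 members were called at any dose by limma, although their changes at the high dose were all above 0 under loess and ranged from 0.09 to 1.84. With median centring the median change of detected genes in high-dose liver was -0.92 in place of 0.02, and the members were below 0, such as Mdm2 with -1.02 (adjusted p = 0.6038), except Cdkn1a with 0.55 (adjusted p = 0.5718), so that the direction in liver rested on the scaling. Of all genes, 0% were called at the low and medium doses and 0.00538% at the high dose. At the looser level of an unadjusted p under 0.05, 6 of 9 members passed at the high dose. The share of all genes at that looser level was not counted. Cdkn1a was at -2.73, -2.64, -3.21, -2.96 and -0.77 in vehicle and at -1.24, -1.06, -0.40, -0.31 and -0.11 in high-dose liver. The vehicle value that overlapped the high-dose group belonged to mouse 5, on the third slide, together with the 3 highest of the high-dose values. The change was 1.84 ± 0.48 (interval from 0.83 to 2.85, adjusted p = 0.3377). Mdm2 was at -1.12, -1.13, -1.06, -0.96 and -0.52 in vehicle and at -0.47, -0.51, -0.13, 0.36 and 0.10 in high-dose liver. It was the sole member whose groups did not overlap there, with a change of 0.83 ± 0.17 (adjusted p = 0.1409). For the trend over dose 0 of 9 were called (0.0135% of all genes, 0.00807% upward and 0.00538% downward), with 6 of 9 under an unadjusted p of 0.05.

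The slide moved with these values. On the third slide Cdkn1a, Btg2, Ppm1d, Plk2 and Sesn1 were well above background on 0 of 8 arrays, Ccng1 on 1, Sesn2 on 2, Plk3 on 4 and Mdm2 on 8 of 8, and the ratios of Cdkn1a there, from -0.77 to -0.11, lay above all those of the other slides, from -3.21 to -1.06. With the slide as a block, 2 of 9 members were called at the high dose (0.32% of all genes), Cdkn1a with a change of 1.24 ± 0.17 and Mdm2 with 0.69 ± 0.09 (adjusted p = 0.0008307 for each). At the medium dose 1 of 9 was then called (0.148% of all genes), Cdkn1a with 0.94 (adjusted p = 0.01567). Without the third slide, which left 4 vehicle and 2 high-dose arrays, Cdkn1a (1.74, adjusted p = 0.0001477) and Ccng1 (1.02, adjusted p = 0.02993) were called at the high dose (0.969% of all genes), and Mdm2 changed by 0.58 (adjusted p = 0.01748), short of 1.5-fold. At the medium dose Cdkn1a (1.08), Ccng1 (0.96) and Plk3 (1.09) were then called (0.49% of all genes).

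Within slides the members of liver stood as follows. On the second slide, with 2 vehicle and 2 high-dose arrays, Cdkn1a was higher at the high dose by 1.54 on average, Ccng1 by 1.04 and Mdm2 by 0.64. On the third slide, with 1 vehicle and 3 high-dose arrays, the differences were 0.49 for Cdkn1a, -0.19 for Ccng1 and 0.63 for Mdm2. The first slide held no high-dose array. Without vehicle mouse 5 alone, Cdkn1a (2.26, adjusted p = 0.04772) and Mdm2 (0.94, adjusted p = 0.03828) were called at the high dose. Of 12 proliferation genes in liver, 0 were called at the high dose by limma with a median change of 1.80, 3 rose with the slide as a block and 7 without the third slide.

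**Figure D4:**
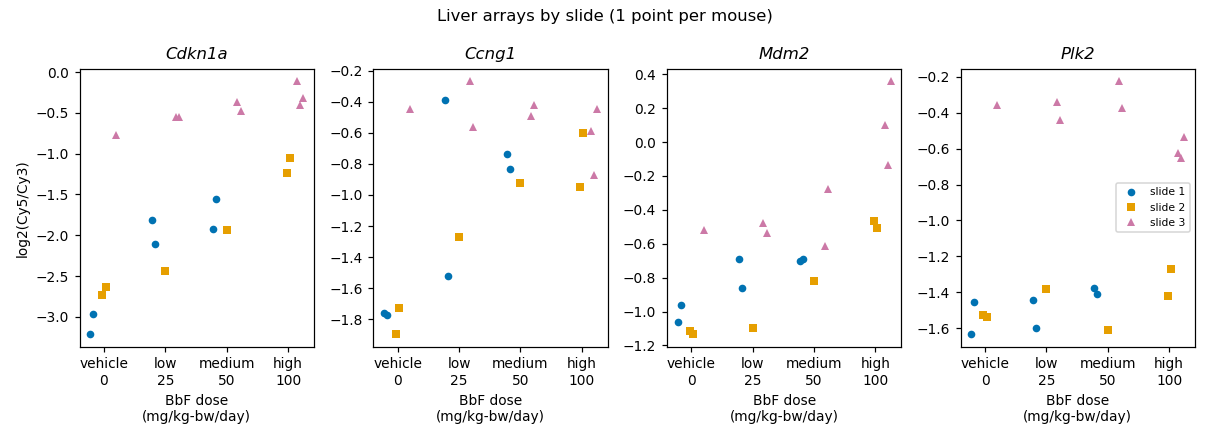
Log2(Cy5/Cy3) of 4 genes (vertical axes) in liver by BbF dose in mg/kg-bw/day (horizontal axes), 1 point per mouse, with the slide given by symbol and colour. Arrays of the third slide (triangles) lay above the others for Cdkn1a and Plk2, and Cdkn1a rose with dose among the arrays of the first and second slides, from -3.21 to -2.64 with vehicle to -1.24 and -1.06 at the high dose.

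In forestomach, the tissue that received the gavage, 0 of 9 members were called at any dose by limma, and 0, 2 and 1 of 9 had an unadjusted p under 0.05 at the low, medium and high dose. Of all genes, 0% passed at the low and medium doses and 0.0996% at the high dose (0.0915% higher and 0.00807% lower). Cdkn1a was at 1.04, 1.41, 0.39, 1.02 and 0.87 in vehicle and at 1.13, 1.06, 1.15, 0.87 and 0.84 in high-dose forestomach, so the high-dose mice lay within the vehicle range. Its change was 0.06, with an interval from -0.22 to 0.34. Changes at the high dose ranged from -0.46 for Sesn2 (interval from -1.01 to 0.08) to 0.23 for Plk2, and Mdm2 changed by 0.17 (adjusted p = 0.5591), where 4 of 5 mice of the high dose exceeded the highest vehicle value. Ccng1 changed by 0.43, 0.56 and 0.21 at the 3 doses in rising order. Without medium-dose mouse 12, the array with hepatic transcripts, 0 of 9 members were called at the medium dose and Ccng1 changed by 0.46. On the step from low to medium 0 of 9 were called (0.00269% of all genes, all higher), and on the trend 0 of 9 (0.0861% of all genes, 0.0807% upward). Of the 20 other p53 targets and the 12 proliferation genes, 0 were called at the high dose by limma, with median changes of 0.01 and -0.01.

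The size of the high-dose effect was compared between pairs of tissues, gene by gene, in fits over both. Between lung and forestomach it differed for 3 of 9 members (0.912% of all genes), and for each the effect was larger in lung, by 2.60 ± 0.26 for Cdkn1a (interval from 2.07 to 3.14, adjusted p = 1.5e-07), by 1.28 ± 0.30 for Sesn2 (adjusted p = 0.02483) and by 1.26 ± 0.28 for Ccng1 (adjusted p = 0.01466). For Mdm2 the difference was 0.47 (adjusted p = 0.03612), under 1.5-fold. The call for Cdkn1a held in 20 of 20 fits that left out 1 mouse, whereas that of Ccng1 was lost without mouse 1, 17, 19 or 20 (adjusted p of up to 0.0684) and that of Sesn2 without mouse 2, 4, 5, 16, 17, 19 or 20 (adjusted p of up to 0.1008). With the mouse as a replicate block, Sesn2 had the same difference of 1.28 with an adjusted p of 0.06474, and with median centring 1.38 with an adjusted p of 0.1277.

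Between lung and liver the effect was called as different for 0 of 9 members by limma (0.385% of all genes), with 1 of 9 under an unadjusted p of 0.05. For Cdkn1a the difference was 0.82 with an interval from -0.29 to 1.93, and for Mdm2 -0.19 with an interval from -0.58 to 0.21. These values are of the main probe of each gene, and for Cdkn1a it was well above background on 4 of 5 vehicle and 2 of 5 high-dose liver arrays. For the second Cdkn1a probe the difference was 2.50, with an interval from 1.97 to 3.03, and was called (adjusted p = 1.31e-06 by limma). That probe was well above background on 0 of 5 vehicle and 2 of 5 high-dose liver arrays, which limits its change in liver, 0.34 at the high dose. After blocking for slide, the effect was larger in lung by 1.32 for Cdkn1a (adjusted p = 0.003953) and by 0.84 for Plk2 (adjusted p = 0.006337), 2 of 9 members against 1.6% of all genes. Between liver and forestomach 0 of 9 were called (0.0377% of all genes), with 3 of 9 under an unadjusted p of 0.05. With the slide as a block Cdkn1a was called there, with an effect larger in liver by 1.18 (adjusted p = 0.02269), as 1 of 9 against 0.0861% of all genes.

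The tissues also differed before exposure. In vehicle mice the main Cdkn1a probe was lowest in liver, with a mean of -2.46 ± 0.97 (SD, n = 5). It was higher in lung, with -0.95 ± 0.47, and highest in forestomach, with 0.95 ± 0.37. Each step of this order was called (differences of 1.51 and 1.90 on the log2 scale). The high-dose lung mean of that probe, 1.71 ± 0.35, lay above its forestomach mean at any dose. The second Cdkn1a probe did not show this order. Its vehicle means for lung, liver and forestomach were -0.75, -0.47 and -0.69, and no pair of tissues was called. That probe was well above background on 1 of 5 vehicle lung arrays and on 0 of 5 for liver and for forestomach, which limits the comparison. Plk3 kept another order, with -1.40 ± 0.20 in lung, -0.14 ± 0.45 in liver and 2.02 ± 0.40 in forestomach, all neighbours being called. Sesn2 was at -1.11 ± 0.40 in liver and -0.70 ± 0.11 in lung, a difference that was not called (adjusted p = 0.1939), and at 1.05 ± 0.63 in forestomach, above both. The liver mean of Sesn2 held mouse 5 of the third slide at -0.45. The other liver values, from -1.46 to -1.09, lay below all those of lung, from -0.84 to -0.59.

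Mdm2 was highest in vehicle lung, with 0.20 ± 0.11, against -0.85 ± 0.11 in forestomach and -0.96 ± 0.26 in liver. The difference between liver and forestomach was not called (adjusted p = 0.6144 by limma). The liver mean of Mdm2 held mouse 5 of the third slide at -0.52. The other liver values ranged from -1.13 to -0.96, against -1.04 to -0.77 in forestomach. Ccng1 was at -0.28 ± 0.19 in lung, -0.68 ± 0.35 in forestomach and -1.52 ± 0.60 in liver, where lung and forestomach did not differ at the threshold (adjusted p = 0.1156). Plk2 was at -0.66 ± 0.34 in lung, above forestomach with -1.63 ± 0.35 (adjusted p = 3.78e-06), with liver between them at -1.30 ± 0.53 and called against neither. The liver mean held mouse 5 of the third slide at -0.36, and without that slide Plk2 was higher in lung than in liver by 0.88 (adjusted p = 2.31e-06). Btg2, Ppm1d and Sesn1 were lowest in liver, with -1.36 ± 0.49, -0.32 ± 0.24 and 0.00 ± 0.18, against 0.53 ± 0.28, 0.33 ± 0.15 and 0.63 ± 0.21 in lung and 0.10 ± 0.27, 0.17 ± 0.14 and 0.91 ± 0.31 in forestomach. For these 3 genes the difference between lung and forestomach was not called. For Ppm1d the difference between liver and forestomach was -0.49 (adjusted p = 0.002363), under 1.5-fold.

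In all, 7 of 9 members differed between vehicle lung and liver (27.8% of all genes), 6 of them higher in lung and Plk3 lower. Between lung and forestomach 5 of 9 differed (23.7% of all genes), with Mdm2 and Plk2 higher and Cdkn1a, Plk3 and Sesn2 lower in lung. Between liver and forestomach 6 of 9 differed (22.6% of all genes), all lower in liver. Each slide held 1 tissue, so slide and tissue cannot be told apart in these levels, and with median centring the number that differed between lung and liver was 2. Without the third liver slide it was 8 for lung against liver and 6 for liver against forestomach, and Cdkn1a then differed by 1.93 (lung minus liver) and by -3.83 (liver minus forestomach).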

How the data were processed

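The authors labelled tissue RNA with Cy5 and a reference RNA with Cy3 and hybridized both to Agilent mouse arrays, without dye swap. Per the file headers, the scanner output holds spot intensity and local background in each dye from Feature Extraction 10.7.3.1, not normalized. The authors also deposited a table of processed log2 ratios, which correlated with the loess values at r between 0.967 and 0.999 and was used as an alternative. All columns were matched to samples.

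Median intensities without background correction, as in the study's methods, were normalized by loess within each array (limma 3.58.1, R 4.3.3). Control and non-uniform spots were left out and repeat spots averaged. Of 55681 probes, 26413 were named through RefSeq accessions (GRCm38.p6, 20018 symbols). The array files name another assembly, and the coordinates printed are those of the RefSeq promoter table. Where a gene had several probes, the brightest over all arrays stood for it. The number of arrays limits the precision.

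Within a tissue, dose groups were compared in 1 fit of all 4 groups by limma's moderated test, and tissues in fits over pairs of tissues, with Benjamini-Hochberg adjustment over all probes. All p-values are 2-sided. The study's Fs permutation test was not run, and limma stands in for it at the study's thresholds. The fit was tested on simulated data. All members were described. Of the other lists, the genes with the largest high-dose changes were named. Trp53 and Zmat3 were added after their values were seen, as were genes marked so in the text. The members and lists were chosen with earlier results of these data known, so nothing here is independent of them. Mouse numbers in the labels tie the tissues of an animal together. The median correlation of deviations between tissues of a mouse was -0.03, 0.04 and 0.03 for the pairs lung and liver, lung and forestomach, and liver and forestomach. Alternatives were median centring, normexp background correction, the authors' table, leaving out dim probes, a mean over probes, the slide or the mouse as a block, leaving out the third liver slide, and leaving out each mouse. List counts under some of them were added after seeing the data. Calls of single leukocyte markers are not reported here.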

Additional observations from a re-analysis of the deposited data

Results flagged for a closer look

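Of 108 groups of 4 or 5 arrays (9 genes in 12 groups), 8 held a value farther from its neighbours than Dixon's 95% limit allows, where chance gives about 1 in 20. In vehicle liver, 4 of them belonged to mouse 5, on the third slide: Cdkn1a at -0.77 (next value -2.64), Ccng1 at -0.45 (next -1.73), Mdm2 at -0.52 (next -0.96) and Plk2 at -0.36 (next -1.46). In the same group Plk3 of mouse 2 was at 0.64 (next -0.23). The other values were Ccng1 of high-dose lung mouse 16 at 0.88 (next 1.21), Mdm2 of vehicle forestomach mouse 4 at -1.04 (next -0.84) and Ppm1d of medium-dose forestomach mouse 15 at 0.47 (next 0.13).

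The high-dose effect differed by a direct test between lung and forestomach for 3 genes, by 2.60 for Cdkn1a, 1.26 for Ccng1 and 1.28 for Sesn2, larger in lung each time.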

How the results depend on the processing

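Numbers of members called are given. Median centring left 2 of the 7 differences between vehicle lung and liver. Over all members and comparisons it lost 8 calls, gained 1 and changed the sign of 66 results that were not called. The authors' processed values lost 2 calls and changed the sign of 5 results that were not called. Leaving out dim probes kept 6347 genes and 2 members in liver. Of these members 1, Mdm2, was called for the high dose (19 genes higher and 7 lower in all). It was also called for the trend (23 upward and 7 downward). A mean over probes gave 0 for the step from medium to high in lung (45 of 37163 genes higher and 29 lower). It gave 1, Cdkn1a, for the difference in effect between lung and liver (89 higher and 64 lower). A block for slide gave 1 in liver at the medium dose, 2 at the high dose, 2 for its trend, 2 for the effect in lung against liver and 1 for liver against forestomach. Of 37163 genes, that trend was called upward for 99 and downward for 36. Without the third liver slide there were 3 at the medium dose, 2 at the high dose, 2 for the trend and 1 for the effect in liver against forestomach. Of 37163 genes, the trend was then called upward for 371 and downward for 62. The effect was called larger in liver than in forestomach for 59 and smaller for 19. Leaving out 1 mouse at a time gave 1 to 3 at the low, 2 to 3 at the medium and 5 to 6 at the high dose in lung, 0 to 1 for its step from medium to high, 4 to 6 for its trend, 0 to 2 for the high dose and 0 to 1 for the trend in liver, 6 to 8 and 5 to 6 for vehicle liver against lung and against forestomach, and 1 to 3 for the effect in lung against forestomach. With the mouse as a replicate block 1 call was lost, that of Sesn2 for lung against forestomach (1.28, adjusted p = 0.06474), and 0 others changed. A slide block could not be fitted for vehicle levels, since each slide holds 1 tissue. No called value changed sign. Signal limits liver most, where Mdm2 alone among the members was above background on all 20 arrays.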
